A study of Mus musculus with 22 samples.

Results

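The sterol arm of cholesterol synthesis was examined through 9 enzymes that act between squalene and cholesterol, Sqle, Lss, Cyp51, Tm7sf2, Msmo1, Nsdhl, Hsd17b7, Sc5d and Dhcr7. A probe was taken as a member when its accession mapped to one of these symbols, which gave 12 of the 55681 probes on the array, and 9 of the 20018 genes that could be named. Tm7sf2, Nsdhl and Hsd17b7 had 2 probes each, and the brightest probe stands for the gene unless stated. The cells were FE1, a lung epithelial line established from the transgenic MutaMouse, and all groups were grown in medium with 2% fetal bovine serum, antibiotics and murine epidermal growth factor. Exposure to Mitsui7, a multi-walled carbon nanotube (MWCNT), lasted 24 h. The control group (0 µg/ml) had 5 arrays, the low dose of 12.5 µg/ml had 6, the medium dose of 25 µg/ml had 5 and the high dose of 100 µg/ml had 6. RNA of the cells carried Cy5 and a pooled reference RNA from 11 mouse cell lines carried Cy3 on each of the 22 arrays, so each level below is a log2 ratio of cells to reference. The dyes were not swapped, so a dye bias of a probe remains in its level and cancels in a difference between groups. FE1 is 1 cell line. The study's methods give 3 separate experiments for 5 or 6 arrays a group, and which array belongs to which experiment is not given. Some arrays of a group may thus share an experiment, while the tests count each array as a replicate, so p-values measure the spread between these arrays and may be too small.

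Squalene is epoxidised and folded into the first sterol, lanosterol, which a chain of enzymes of the endoplasmic reticulum then demethylates, isomerises and reduces to cholesterol. The genes of this chain are classical targets of the SREBP transcription factors. SREBP precursors are held in the endoplasmic reticulum by Insig proteins while sterols are plentiful and are cut to their active form when sterols fall, and they bind promoters together with NF-Y and Sp1. In the lung, cholesterol made or taken up by epithelial cells is a component of surfactant as well as of membranes.

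Between 23688 and 39139 probes per array were detected, meaning that the Cy5 signal passed the level of the negative control spots. The 12 member probes were detected on 22 of 22 arrays and none was saturated. The arrays came from 5 slides. Each group had 2 arrays on slide 1 and 1 array on each of slides 2, 3 and 4, and slide 5 carried 1 low and 1 high dose array without a control. Some arrays lay nearer to another group than to their own by the correlation of slide-adjusted log2 ratios with the group centres: low dose replicate 1 (nearest to medium), low dose replicate 2 (control), medium dose replicate 2 (low), medium dose replicates 1 and 5 (high) and high dose replicate 6 (medium). Low dose replicate 1 and medium dose replicate 2 had correlations below 0 with their own group's centre (-0.33 and -0.31), and counts without them are given below. Of 9 epithelial markers 6 were detected in the comparison of high dose with control, Krt8, Krt18 and Cldn7 on 22 arrays, whereas Cdh1 was detected on 0 arrays. Of 8 alveolar and airway markers 4 were detected there, Sftpc on 17 arrays and Nkx2-1 and Sftpa1 on 0.

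The promoters of the sterol arm are shown because SREBP, NF-Y and Sp1 are known to act at such genes. The part of these factors in the changes of the members was not tested. Windows of 300 bases, from 250 before to 50 after an annotated start, came from RefSeq on GRCm38.p6, and 8 of the 9 members had at least 1. The 5 windows printed belong to members called lower at the high dose: Lss at chr10:76531355-76531654 (plus strand), Tm7sf2 at chr19:6067801-6068100 (minus strand), Nsdhl at chrX:72918271-72918570 (plus strand), Hsd17b7 at chr1:169969156-169969455 (minus strand) and Dhcr7 at chr7:143829964-143830263 (plus strand). Dhcr7 had 3 windows, and the one shown is the one that holds CCAAT. Capitals mark matches, on either strand, to the NF-Y box CCAAT, the Sp1 box GGGCGG and the E-box CACGTG.
Lss: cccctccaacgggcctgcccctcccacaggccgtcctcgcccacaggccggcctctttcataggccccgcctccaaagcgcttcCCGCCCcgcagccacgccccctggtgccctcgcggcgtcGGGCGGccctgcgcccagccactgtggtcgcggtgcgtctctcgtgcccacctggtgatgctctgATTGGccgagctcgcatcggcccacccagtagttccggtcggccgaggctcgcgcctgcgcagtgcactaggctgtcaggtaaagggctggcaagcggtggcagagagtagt
Tm7sf2: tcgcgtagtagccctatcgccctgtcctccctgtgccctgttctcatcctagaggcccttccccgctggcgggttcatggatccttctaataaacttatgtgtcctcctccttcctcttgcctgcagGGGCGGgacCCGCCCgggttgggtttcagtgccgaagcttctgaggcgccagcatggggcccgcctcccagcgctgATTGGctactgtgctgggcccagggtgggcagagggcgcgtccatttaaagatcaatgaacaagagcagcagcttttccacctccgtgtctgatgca
Nsdhl: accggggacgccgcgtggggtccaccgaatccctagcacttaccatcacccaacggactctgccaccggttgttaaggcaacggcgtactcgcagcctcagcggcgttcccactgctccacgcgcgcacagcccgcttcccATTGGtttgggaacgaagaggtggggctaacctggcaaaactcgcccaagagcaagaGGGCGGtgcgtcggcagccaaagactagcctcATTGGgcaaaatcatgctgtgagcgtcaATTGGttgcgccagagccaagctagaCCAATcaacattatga
Hsd17b7: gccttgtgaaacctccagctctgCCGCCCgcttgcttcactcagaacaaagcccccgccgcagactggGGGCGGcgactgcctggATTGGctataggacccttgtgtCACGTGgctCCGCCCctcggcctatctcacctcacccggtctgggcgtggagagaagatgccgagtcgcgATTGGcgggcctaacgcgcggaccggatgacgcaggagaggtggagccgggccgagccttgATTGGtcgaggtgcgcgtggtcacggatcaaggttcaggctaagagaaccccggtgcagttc
Dhcr7: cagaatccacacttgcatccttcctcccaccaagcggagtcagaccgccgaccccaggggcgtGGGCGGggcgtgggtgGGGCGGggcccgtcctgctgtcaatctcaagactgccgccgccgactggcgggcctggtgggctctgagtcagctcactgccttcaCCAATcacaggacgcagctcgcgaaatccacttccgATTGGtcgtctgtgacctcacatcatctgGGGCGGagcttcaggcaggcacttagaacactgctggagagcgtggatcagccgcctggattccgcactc
CCAAT was in 8 of the 10 member windows and in 37.4% of all 32851 windows of this length. GGGCGG was in 9 of the 10 member windows and in 35.7% of all. CACGTG was in 3 member windows, of Hsd17b7, Sc5d and Dhcr7, and in 7.15% of all. The core of the sterol regulatory element, searched as TCACNCCAC on both strands, was in 0 member windows and in 1.24% of all. These are letter matches within a short window and were not tested, and the array grid was annotated on another build, mm9, so the windows are not tied to probe positions.

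The question for each dose was which members of the sterol arm differed from untreated cells. At the high dose 6 of the 9 members were called lower (Sqle, Lss, Tm7sf2, Nsdhl, Hsd17b7 and Dhcr7) and none was called higher, where 6.4% of all 14027 named genes tested were called lower. At the medium dose 4 members were called lower (Lss, Tm7sf2, Nsdhl and Dhcr7), beside 4.65% of all genes tested. At the low dose 2 members were called lower (Lss and Tm7sf2), beside 3.01% of all genes. A gene counted as called when limma, fitted with group and slide, gave an adjusted p no higher than 0.05 over all probes, when its change reached 1.5-fold, and when 4 or more arrays of one of the groups detected it. The median log2 change over the 9 members was -0.70 at the low, -0.78 at the medium and -1.15 at the high dose, beside medians of 0.00, 0.00 and 0.01 over all genes tested. The estimates of the 3 comparisons share the control arrays. Without low dose replicate 1 and medium dose replicate 2, 1, 5 and 7 members were called lower at the low, medium and high dose. With the replicate number in place of the slide as a block, the counts were 4, 4 and 7. The share of all genes called was not counted under either setting, so these counts have no share to be read against.

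**Figure D1:**
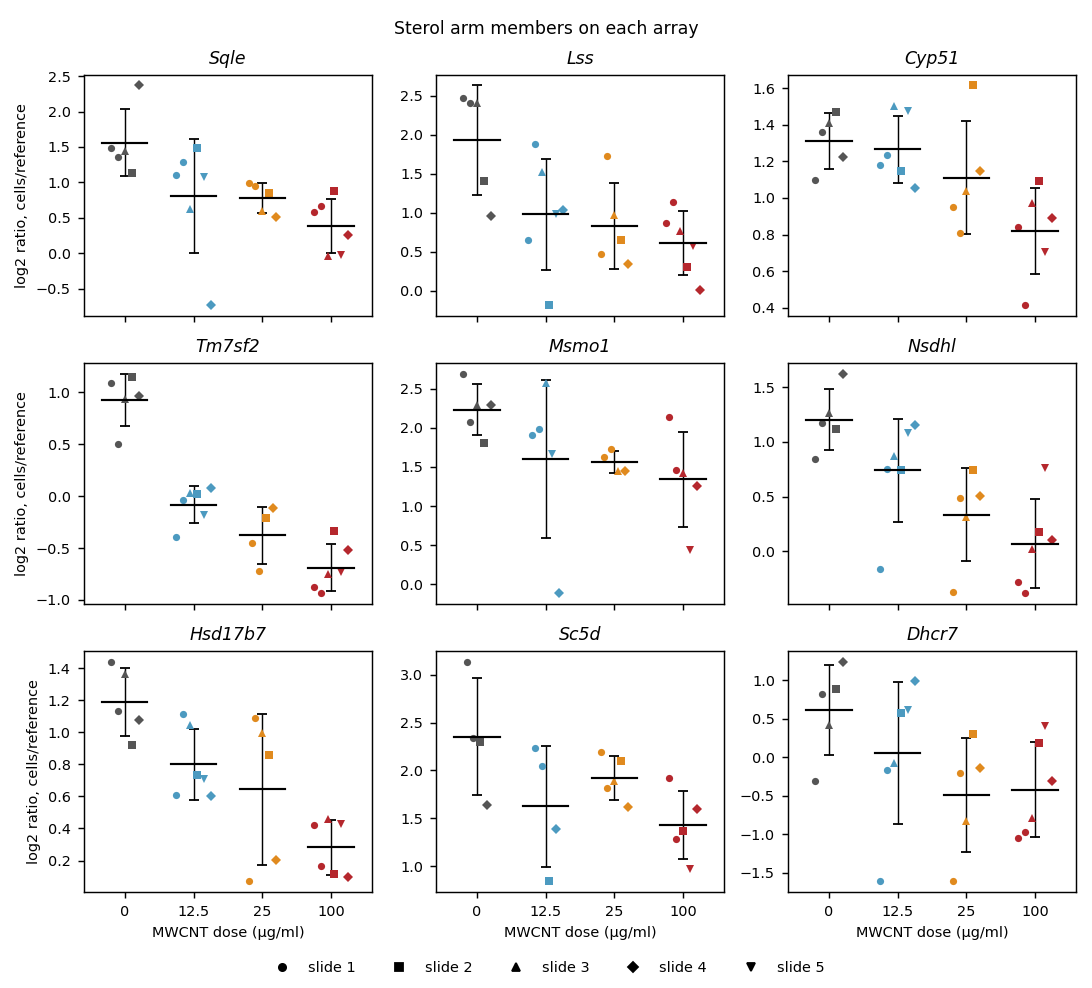
Log2 ratio of cells to reference (vertical axis) of the brightest probe of each member on each array, by MWCNT dose in µg/ml (horizontal axis); marker shapes give the slide, the long bar the group mean and the whiskers 1 SD, and missing spots are left out. For Tm7sf2 the controls (0.50 to 1.15) lie above all exposed arrays, whereas every other member overlaps between controls and the low dose.

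Sqle encodes squalene epoxidase, which opens the arm and is one of its rate-setting enzymes. Its log2 ratio was 1.48, 1.35, 1.45, 1.13 and 2.37 on control replicates 1 to 5, and at the medium dose 0.99, 0.95, 0.60, 0.85 and 0.51. At the low dose the lowest, median and highest values were -0.73, 1.09 and 1.49, and at the high dose -0.04, 0.42 and 0.88. All 6 high dose and all 5 medium dose arrays lay below the lowest control, while the low dose overlapped the controls. By limma Sqle fell at the high dose by 1.15 ± 0.29 (log2, SE; 2.23-fold, adjusted p = 0.0142). The estimates at the low and medium dose were -0.74 ± 0.29 and -0.78 ± 0.30, with adjusted p of 0.226 and 0.170. Control replicate 5 lay well above the other controls and low dose replicate 6 far below its group. Without low dose replicate 6 the low dose estimate was -0.36 (adjusted p = 0.480), while the medium dose estimate stayed at -0.78 and was called (adjusted p = 0.0188). Without control replicate 5 the low and medium dose estimates were -0.37 and -0.41 (adjusted p of 0.515 and 0.479). Without slide 1 the high dose estimate was -1.41 (adjusted p = 0.103) and without slide 3 it was -1.08 (adjusted p = 0.107), and neither was called.

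Lss, lanosterol synthase, folds the epoxide of squalene into lanosterol. The log2 ratio of Lss was 2.47, 2.41, 2.40, 1.41 and 0.95 on the 5 control arrays and 0.47, 1.72, 0.98, 0.65 and 0.35 on the 5 medium dose arrays. The low dose ran from -0.18 over a median of 1.01 to 1.88, and the high dose from 0.02 over 0.67 to 1.15. The controls of slides 2 and 4 (replicates 4 and 5) were low, so the groups overlapped on this scale. With each slide's offset removed, 6 of 6 high dose and 5 of 5 medium dose arrays lay below every control. The offsets came from the same fit as the group estimates, and slide 5 holds no control. The share of all genes that separate in this way was not counted, so this is a description only. Lss fell at all 3 doses by limma, by 0.95 ± 0.25 at the low dose (1.93-fold, adjusted p = 0.0353), by 1.10 ± 0.25 at the medium dose (2.14-fold, adjusted p = 0.0105) and by 1.31 ± 0.25 at the high dose (2.49-fold, adjusted p = 0.00123). The low dose call was the least firm. It was lost on leaving out any of 8 single arrays (control replicates 1, 2, 3 and 4, low dose replicates 1, 4 and 5, and high dose replicate 5), with estimates between -0.95 and -0.76 and adjusted p between 0.0544 and 0.119.

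Cyp51 encodes lanosterol demethylase, the cytochrome P450 of the arm. Its log2 ratio was 1.10, 1.36, 1.41, 1.47 and 1.22 in controls and 0.95, 0.81, 1.04, 1.61 and 1.15 at the medium dose. It ran from 1.05 over a median of 1.21 to 1.51 at the low dose and from 0.42 over 0.87 to 1.09 at the high dose. The high dose lay wholly below the controls, by less than 0.01 between its highest array and the lowest control, and the other doses overlapped them. The limma estimates were -0.06 ± 0.12 (adjusted p = 0.899), -0.20 ± 0.12 (adjusted p = 0.493) and -0.50 ± 0.12 (adjusted p = 0.00835) from the low to the high dose. The last passed the p threshold, but 1.42-fold was under the 1.5-fold needed for a call. Among the 9 members Cyp51 had the estimate nearest to 0 at each dose.

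Tm7sf2 encodes a sterol reductase that acts on the product of Cyp51. On the log2 ratio scale it read 1.09, 0.50, 0.94, 1.15 and 0.97 in controls, and -0.45, -0.73, -0.21 and -0.11 on the 4 medium dose arrays with a usable spot (replicates 1, 2, 4 and 5). It ran from -0.40 over a median of -0.01 to 0.08 at the low dose and from -0.93 over -0.74 to -0.34 at the high dose. Every exposed array lay below every control, and it was the only member of which that held at the low dose, a separation that 2.58% of all genes tested showed there. Tm7sf2 had the largest change of the 9 members at each dose. It fell by 1.00 ± 0.11 (1.99-fold, adjusted p = 1.21e-05) at the low, by 1.30 ± 0.12 (2.46-fold, adjusted p = 1.1e-06) at the medium and by 1.60 ± 0.11 (3.04-fold, adjusted p = 1.05e-08) at the high dose. The medium dose fit left out the missing spot of replicate 3. Its second, dimmer probe gave -0.79 ± 0.14, -1.04 ± 0.14 and -1.27 ± 0.14 and was called at each dose (adjusted p of 0.00215, 1e-04 and 4.4e-06). On that probe the low dose did not separate from the controls. Low dose replicate 6 read 0.40 there, above control replicate 1 (0.25).

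Msmo1, methylsterol monooxygenase, begins the removal of the methyl groups that remain on the sterol ring. Log2 ratios of Msmo1 were 2.69, 2.07, 2.30, 1.80 and 2.29 in controls and 1.62, 1.73, 1.45 and 1.45 on medium dose replicates 1, 2, 3 and 5. Replicate 4 of each exposed group, all on slide 2, had no usable spot. Low dose replicates 1, 2, 3, 5 and 6 gave 1.90, 1.98, 2.57, 1.66 and -0.11, and the high dose replicates 1, 2, 3, 5 and 6 gave 2.14, 1.47, 1.42, 0.43 and 1.26. The 4 medium dose values lay below the controls, and the other doses overlapped them. None of the comparisons was called: the estimates were -0.63 ± 0.34, -0.77 ± 0.35 and -0.89 ± 0.34 with adjusted p of 0.449, 0.292 and 0.146. Without low dose replicate 6 the low dose estimate was -0.14 (adjusted p = 0.850), so the value of -0.63 rests on that array. Without the same array the medium dose estimate was -0.77 (adjusted p = 0.0303) and the high dose estimate was -0.84 (adjusted p = 0.011), both called.

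Nsdhl encodes the dehydrogenase that takes off a carboxylated methyl group, a gene of the X chromosome. Its log2 ratio was 0.85, 1.17, 1.26, 1.12 and 1.62 in controls and -0.38, 0.49, 0.31, 0.74 and 0.50 at the medium dose. It ran from -0.16 over a median of 0.81 to 1.16 at the low dose and from -0.38 over 0.07 to 0.76 at the high dose. The medium and high dose arrays all lay below the lowest control, and the low dose did not separate. Nsdhl fell by 0.87 ± 0.17 at the medium dose (1.83-fold, adjusted p = 0.00259) and by 1.24 ± 0.16 at the high dose (2.36-fold, adjusted p = 3.34e-05). At the low dose the estimate of -0.57 ± 0.16 was not called (adjusted p = 0.0648), and without low dose replicate 2 it was -0.66 and called (adjusted p = 0.028). The second probe gave -0.64 ± 0.12, -0.84 ± 0.12 and -1.04 ± 0.12 and was called at each dose (adjusted p of 0.00383, 0.000203 and 7.62e-06).

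Hsd17b7 encodes the ketosteroid reductase that completes demethylation, and it also acts on estrone. Controls gave Hsd17b7 log2 ratios of 1.44, 1.14, 1.37, 0.92 and 1.08, and medium dose arrays 0.07, 1.09, 1.00, 0.86 and 0.20. It ran from 0.60 over a median of 0.72 to 1.11 at the low dose and from 0.10 over 0.29 to 0.46 at the high dose. The high dose arrays lay below every control and below every low dose array, whereas the medium dose was split, with replicates 1 and 5 near the high dose values and the others within the low dose range. Hsd17b7 fell by 0.91 ± 0.15 at the high dose (1.88-fold, adjusted p = 0.000387). At the medium dose the estimate of -0.55 ± 0.15 passed the p threshold (adjusted p = 0.0432) but was 1.46-fold, and at the low dose it was -0.39 ± 0.15 (adjusted p = 0.210). Leaving out control replicate 4, medium dose replicate 2 or medium dose replicate 4 moved the medium dose estimate to -0.61, -0.66 and -0.64, each called (adjusted p of 0.0421, 0.011 and 0.0263). The second probe gave -0.37 ± 0.15, -0.57 ± 0.16 and -0.65 ± 0.15, and only the last was called (adjusted p = 0.00946). On that probe the high dose did not separate from the controls or the low dose. High dose replicate 1 read 1.38 there, above control replicates 2, 4 and 5 (1.23, 1.09 and 1.18) and the highest low dose array (1.17). How many of all genes had every high dose array below every low dose array was not counted.

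Sc5d encodes the desaturase that makes the diene which Dhcr7 reduces. Log2 ratios of Sc5d were 3.13, 2.33, 2.30 and 1.64 on control replicates 1, 2, 4 and 5, and 2.19, 1.82, 1.89, 2.10 and 1.62 at the medium dose. Low dose replicates 1, 2, 4 and 6 gave 2.23, 2.04, 0.85 and 1.39, and high dose replicates 1, 2, 4, 5 and 6 gave 1.92, 1.28, 1.36, 0.97 and 1.60. The 4 missing spots were those of replicate 3 of the control, low dose and high dose and of low dose replicate 5. Every exposed group overlapped the controls. The estimates were -0.73 ± 0.25 (adjusted p = 0.146), -0.42 ± 0.25 (adjusted p = 0.486) and -0.81 ± 0.25 (adjusted p = 0.056), and none was called. The high dose estimate lay near the threshold: it was called on leaving out control replicate 5 (-0.99, adjusted p = 0.0266), low dose replicate 4 (-0.81, adjusted p = 0.0228), medium dose replicate 4 (-0.81, adjusted p = 0.0493) or high dose replicate 6 (-0.97, adjusted p = 0.0366), and with the marked spots kept (-0.87, adjusted p = 0.0105). Without low dose replicate 4 the low dose estimate was -0.47 (adjusted p = 0.442), and without control replicate 1 the medium dose estimate was -0.23 (adjusted p = 0.778). Sc5d was the member whose medium dose estimate was nearer to 0 than its low dose estimate.

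Dhcr7 reduces a double bond of the ring in the step that gives cholesterol, and its substrate is also the precursor of vitamin D. Its log2 ratio was -0.30, 0.82, 0.43, 0.89 and 1.24 in controls and -1.60, -0.20, -0.82, 0.31 and -0.13 at the medium dose. It ran from -1.60 over a median of 0.25 to 0.99 at the low dose and from -1.04 over -0.55 to 0.41 at the high dose. Replicate 1, on slide 1, was the lowest array of every group. The groups overlapped as measured, while 6 of 6 high dose arrays lay below every control once the slide offsets were removed. As for Lss, these offsets came from the same fit, and the share of all genes was not counted. Dhcr7 fell by 1.11 ± 0.28 at the medium dose (2.15-fold, adjusted p = 0.0200) and by 1.17 ± 0.27 at the high dose (2.26-fold, adjusted p = 0.00735), and at the low dose the estimate was -0.70 ± 0.27 (adjusted p = 0.215), or -0.45 without low dose replicate 1 (adjusted p = 0.432). The medium dose call was lost without control replicate 2 (-0.91, adjusted p = 0.0693), control replicate 3 (-1.11, adjusted p = 0.0539), or medium dose replicate 1, 3 or 5 (-0.94, -1.05 and -1.03, adjusted p of 0.0738, 0.0606 and 0.0679).

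**Figure D2:**
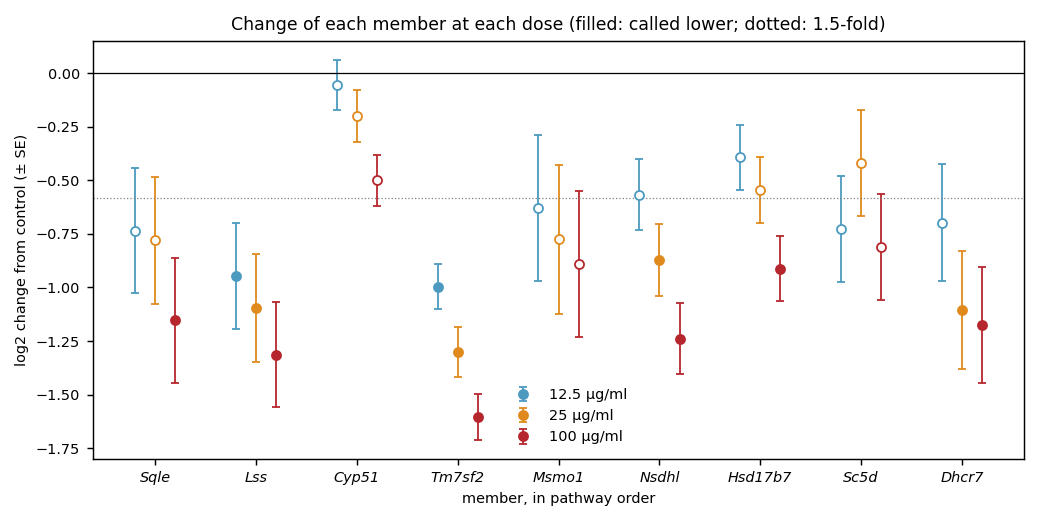
Log2 change from control (vertical axis, with its standard error) of each member in pathway order (horizontal axis) at 12.5, 25 and 100 µg/ml; filled points were called lower and the dotted line is a 1.5-fold decrease. All 9 estimates lie below 0 at each dose, between -0.06 (Cyp51, low dose) and -1.60 (Tm7sf2, high dose).

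Doses were then compared directly with each other. Between medium and low dose limma called no member, where 0% of all genes tested were called lower (the count was 0 of 13876), and 1 of 9 members had an unadjusted p under 0.05, as 8.52% of all genes had. Between the high and the medium dose no member was called either, again beside 0% of all genes, and 4 of 9 members had an unadjusted p under 0.05, as 5.44% of all genes had. Between the high and the low dose 1 member was called, Tm7sf2, which was lower at the high dose by 0.61 ± 0.10 (1.52-fold, adjusted p = 0.00959), beside 0.365% of all 14256 genes tested. This call was lost, through a change under 1.5-fold, without low dose replicate 2 (-0.56), low dose replicate 3 (-0.58) or high dose replicate 3 (-0.58). Nsdhl had the largest difference, -0.67 ± 0.15 with an adjusted p of 0.0714, and was called without low dose replicate 1 (-0.79, adjusted p = 0.0121) or medium dose replicate 1 (-0.67, adjusted p = 0.0483). Without low dose replicate 1 and medium dose replicate 2 both were called, and with the replicate number as a block both were called as well. The second probe of either gene was not called here. It gave -0.47 ± 0.13 for Tm7sf2 (adjusted p = 0.177) and -0.41 ± 0.11 for Nsdhl (adjusted p = 0.181). The other 7 members differed by -0.08 (Sc5d) to -0.52 (Hsd17b7), with adjusted p from 0.103 to 0.963.

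Separation between groups was also read directly from the log2 ratios. At the high dose 5 of the 9 members (Sqle, Cyp51, Tm7sf2, Nsdhl and Hsd17b7) had every high dose array below every control array, which 5.74% of all genes tested had. At the medium dose 4 members did (Sqle, Tm7sf2, Msmo1 and Nsdhl, with 4 exposed arrays each for Tm7sf2 and Msmo1), beside 4.88% of all genes. These counts are by the brightest probe, and on the second probe of Hsd17b7 the high dose overlapped the controls. Because slides differ in level, the members were also compared within the 4 slides that hold controls. On slides 2, 3 and 4 the same 1 control array serves all members, so the members are not independent observations. The share of all genes lower within a slide was not counted, so these counts are a description only. At the high dose 9 of 9 members with a value were lower than the control of the same slide on slides 1 and 4 and 8 of 8 on slides 2 and 3. The median difference over the members was -1.13, -0.87, -1.22 and -1.03 on slides 1 to 4. At the medium dose 9 of 9, 7 of 8, 7 of 7 and 9 of 9 members were lower on slides 1 to 4, the exception being Cyp51 on slide 2 (0.15 higher). At the low dose 9 of 9, 7 of 8, 6 of 8 and 8 of 9 were lower. There the exceptions were Sqle on slide 2 (0.36 higher), Cyp51 (0.09 higher) and Msmo1 (0.27 higher) on slide 3, and Lss on slide 4 (0.08 higher). The low dose difference of Sqle ran from -3.10 to 0.36 over the slides and that of Msmo1 from -2.40 to 0.27, both lowest on slide 4, which holds low dose replicate 6. Within slides the high dose difference of Tm7sf2 ran from -1.70 to -1.48, whereas that of Sqle ran from -2.11 to -0.25.

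**Figure D3:**
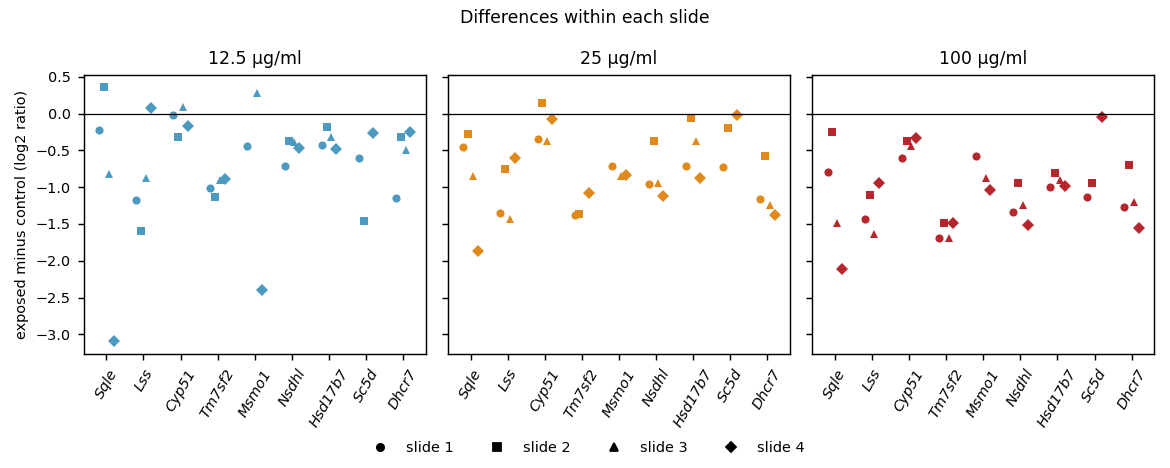
Difference between exposed and control arrays of the same slide (vertical axis, log2 ratio, means where a slide holds 2 arrays of a group) for each member (horizontal axis) at each dose; marker shapes give the slide. At 100 µg/ml all points lie below 0, from -2.11 (Sqle, slide 4) to -0.04 (Sc5d, slide 4).

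The spread of some members on the arrays went with the position of their spots. The probes of Sqle and Msmo1 lie in row 384, the last of the grid, and their residual SDs of 0.543 and 0.590 stood at percentiles 98.6 and 99.1 of all detected probes. On low dose replicate 6, where Sqle and Msmo1 were at their lowest, the 32 bright probes of that row deviated from their group means by a median of -0.57 (MAD 1.03), and the other bright probes by -0.06 (MAD 0.40). For every probe the median deviation of the detected probes within 6 rows and 6 columns was computed on each array. Each deviation was taken from the detected probe's mean over all arrays. Within groups, Msmo1 followed its neighbours with r = 0.95 over 19 arrays, Sqle with r = 0.92 over 22, Lss with 0.80 over 22, Sc5d with 0.77 over 18, Dhcr7 with 0.65 over 22, Tm7sf2 with 0.65 over 21 and Nsdhl with 0.41 over 22. In contrast r was 0.04 for Cyp51 and -0.09 for Hsd17b7, and the median over 10527 genes was 0.37. Without the 2 arrays farthest out, r was 0.82 for Msmo1, 0.86 for Sqle, 0.65 for Lss, 0.68 for Sc5d, 0.69 for Dhcr7, 0.71 for Tm7sf2 and 0.43 for Nsdhl. These correlations are descriptions, since neighbouring spots share the array and its hybridisation.

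Subtracting the neighbours' deviation, a step chosen after seeing the data, lowered the residual SD of Sqle from 0.543 to 0.211 and that of Msmo1 from 0.590 to 0.311. That of Tm7sf2 rose from 0.167 to 0.178, and over all genes the residual SD rose by a median factor of 1.02. On these values 8 of the 9 members were called lower at the high dose, beside 6.39% of all genes, with Msmo1 (-0.71, adjusted p = 0.0204) and Sc5d (-0.83, adjusted p = 0.014) added. Because the deviations were taken from means over all arrays, the step also removed differences between groups that the neighbours showed. The neighbours of Sqle had means of 0.23 in controls and -0.13 at the high dose. For Msmo1 these means were 0.11 and -0.11, and for Lss -0.07 and 0.04. The high dose change of Sqle became smaller and its p lower, -0.80 ± 0.13 with an adjusted p of 0.000187. Its estimates at the low and medium dose became -0.52 (adjusted p = 0.0221) and -0.56 (adjusted p = 0.00961), both under 1.5-fold. The counts at the low and medium dose stayed at 2 and 4. The call of Tm7sf2 between the high and the low dose was lost (-0.55).

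**Figure D4:**
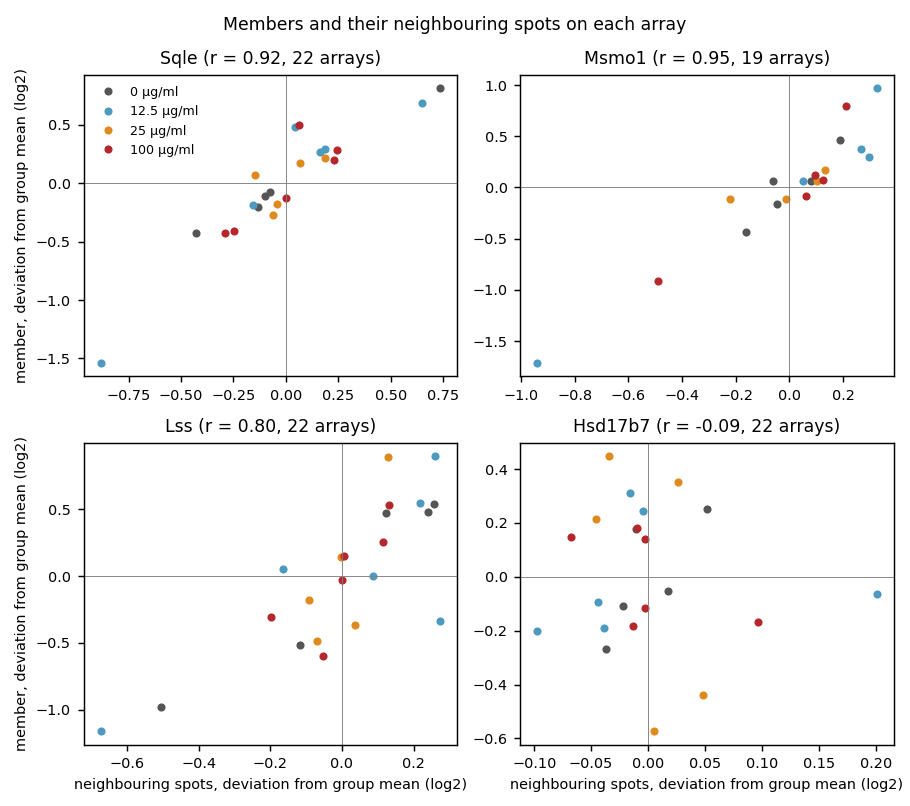
Deviation of a member from its group mean (vertical axis, log2 ratio) against the median deviation of the neighbouring spots, also from the group mean (horizontal axis, log2 ratio), with 1 point per array coloured by dose. Sqle, Msmo1 and Lss rise with their neighbours (r = 0.92, 0.95 and 0.80), with low dose replicate 6 at the lower left for Sqle and Msmo1, and Hsd17b7 does not (r = -0.09).

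The members varied together across the arrays to different degrees. Over the arrays with a value (18 for Sc5d, 19 for Msmo1, 21 for Tm7sf2 and 22 for the others), the slide-adjusted ratio of each member correlated with the mean of the other 8 at r between 0.58 (Sc5d) and 0.90 (Nsdhl and Tm7sf2). Once group and slide were taken out, the pairwise r of the members ran from -0.47 (Sc5d with Dhcr7) to 0.93 (Nsdhl with Dhcr7). The probes of Nsdhl and Dhcr7 lie close by row, in rows 44 and 40 of the grid. That of Tm7sf2, also in row 44, had r of -0.07 with Nsdhl and -0.25 with Dhcr7. The part of spot position in these r was not tested. Outside the members, the 5 named genes closest to the mean of the 9, of 12249 candidates, were Hopx (r = 0.97), Ggcx (0.95), St3gal5 (0.95), Hacd4 (0.95) and Id1 (0.95). Hopx encodes a small homeodomain protein of alveolar type I cells, Ggcx the carboxylase that uses vitamin K, St3gal5 a ganglioside synthase, Hacd4 an enzyme of fatty acid elongation and Id1 an inhibitor of basic helix-loop-helix factors. Their high dose changes were -2.08 ± 0.16, -1.09 ± 0.10, -1.19 ± 0.09, -1.87 ± 0.22 and -1.83 ± 0.14 (adjusted p at most 8.14e-06). The 5 genes were picked for following a mean that falls with dose on the same arrays. Their decreases and small p-values thus follow from the choice and are no separate evidence. The correlations follow the dose groups and the shared slides, and were not tested.

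The rest of the sterol arm was followed through Ebp and Lbr. Ebp, the sterol isomerase, fell at the high dose by 0.80 ± 0.09 (adjusted p = 6.94e-06), a call lost with median centring (-0.85, adjusted p = 0.125). Lbr, a nuclear envelope protein with the same reductase activity as Tm7sf2, had an estimate of -0.32 ± 0.11 (adjusted p = 0.0762). The difference between Lbr and Tm7sf2 was not tested. Of 6 genes for redox partners and the scaffold of the arm 1 was called lower at the high dose, beside 6.4% of all genes tested. This was Cyb5a (-0.64 ± 0.11, adjusted p = 0.000695), which encodes the cytochrome that passes electrons to Sc5d and Msmo1. The call of Cyb5a was lost with median centring (-0.69, adjusted p = 0.375). It was also lost, through a change under 1.5-fold, without control replicate 1 (-0.55), high dose replicate 2 (-0.57) or slide 1 (-0.57). The same held with the neighbours' deviation subtracted (-0.56).

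The mevalonate arm, which supplies squalene, had 3, 8 and 9 of its 10 genes called lower at the low, medium and high dose. The shares of all genes tested called lower there were 3.01%, 4.65% and 6.4%. The median log2 changes of the arm were -0.43, -0.71 and -0.94. The largest high dose changes were those of Mvd (-1.54 ± 0.25, adjusted p = 0.000314), Hmgcs1 (-1.24 ± 0.19, adjusted p = 0.000316) and Mvk (-1.18 ± 0.13, adjusted p = 2.28e-06). Fdft1, squalene synthase, changed by -0.84 ± 0.24 (adjusted p = 0.0348), and 7 of the arrays when left out took the call away (control replicates 2, 3 and 5 and high dose replicates 2, 3, 4 and 6; -0.87 to -0.72, adjusted p 0.0538 to 0.110). The 1 gene not called was Ggps1, which makes the precursor of protein prenylation and lies off the route to squalene (0.16 ± 0.30, adjusted p = 0.888).

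**Figure D5:**
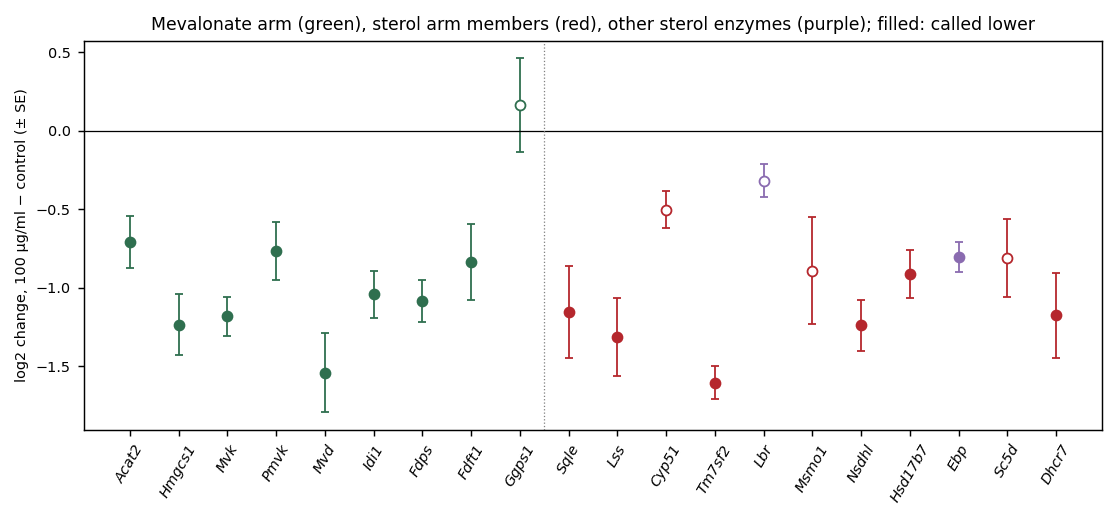
Log2 change at 100 µg/ml from control (vertical axis, with its standard error) of genes of the mevalonate arm and the sterol arm (horizontal axis, in pathway order); filled points were called lower. Of the 20 genes drawn, Ggps1 (0.16) is the 1 above 0, and Tm7sf2 (-1.60) and Mvd (-1.54) lie lowest.

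Genes that govern the pathway and move sterols were counted by the same rule. The counts below are for the high dose, where 6.4% of all genes tested were called lower. Of the 7 SREBP regulators 1 was called lower at the high dose, Insig1 (-0.91 ± 0.16, adjusted p = 0.000533), itself an SREBP target. The transcript of Srebf2, the SREBP that acts on cholesterol genes, had an estimate of -0.29 ± 0.20 (adjusted p = 0.553). Of 6 genes for sterol uptake and transport 2 were called lower, among them the sterol carrier Stard4 (-0.97 ± 0.12, adjusted p = 1.75e-05). Of 6 detected genes of LXR and sterol efflux 2 were called lower, Mylip (-0.84 ± 0.16, adjusted p = 0.00203), a ubiquitin ligase induced by LXR, and Ch25h (-0.60 ± 0.11, adjusted p = 0.000829), a sterol hydroxylase. The call of Mylip was lost with median centring (-0.73, adjusted p = 0.093) and in the authors' matrix (-0.50, adjusted p = 0.0506). The call of Ch25h was lost, through a change under 1.5-fold, without control replicate 1 (-0.54), high dose replicate 1 (-0.56) or high dose replicate 3 (-0.56). Abca1, the cholesterol exporter induced by LXR, was detected on 15 arrays and had an estimate of -0.12 ± 0.16 (adjusted p = 0.827), and Hprt, a housekeeping gene, one of 0.39 ± 0.16 (adjusted p = 0.161).

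Markers of other cell types were followed beside the members. Of 8 mesenchymal markers, all detected, 4, 6 and 6 were called lower at the low, medium and high dose. The shares of all genes tested called lower there were 3.01%, 4.65% and 6.4%. The median log2 changes of the 8 markers were -0.61, -1.02 and -1.34. Among them Col3a1 fell by 1.70 ± 0.15, Pdgfra by 1.53 ± 0.10 and Col1a2 by 1.52 ± 0.16 at the high dose (adjusted p at most 1.81e-06). The 2 not called were Vim (0.14 ± 0.22, adjusted p = 0.859) and Acta2 (-0.70 ± 0.31, adjusted p = 0.229), named here after their values were seen. The mean log2 ratio of the 8 markers ran from 0.26 to 0.51 over the control arrays, from -0.76 to 0.16 at the low, from -0.83 to -0.38 at the medium and from -0.96 to -0.42 at the high dose, so the controls did not overlap the exposed arrays. None of the detected epithelial, alveolar and airway, or leukocyte and endothelial markers was called at any dose. The mean of the 6 epithelial markers ran from -2.93 to -2.43 over the controls and from -2.89 to -2.52 at the high dose. The mean of the 4 detected alveolar and airway markers ran from -0.66 to -0.33 over the controls, from -0.59 to -0.32 at the low, from -0.50 to 0.59 at the medium and from -0.46 to 0.0053 at the high dose. Among them Sftpc and Scgb1a1 had high dose estimates of 0.61 ± 0.24 and 0.49 ± 0.15 (adjusted p of 0.153 and 0.0506). The rest of the detected list, Sftpd and Aqp5, had 0.0039 ± 0.12 and -0.37 ± 0.14 (adjusted p of 0.995 and 0.12). The list thus did not move in 1 direction, and its genes were named after their values were seen. The mesenchymal mean was lower on every exposed array than on any control, the alveolar and airway mean was higher on some exposed arrays, and the part of either list in the change of the sterol arm was not tested. In RNA from a whole culture, fewer cells of one kind and less RNA per cell cannot be told apart.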

How the data were processed

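RNA of FE1 cells (Cy5) and a reference RNA (Cy3) were hybridised by the authors to 22 two-colour Agilent arrays, and the deposited scanner files (Feature Extraction 10.7.3.1) hold an intensity per spot and channel. The deposited files also hold the scanner's log10 ratio, and the authors' series matrix holds log2 ratios whose normalization is not given in the sources used here. Control spots and spots with outlier or non-uniformity marks in the deposited files were left out. Log2(Cy5/Cy3) of median intensity, without background subtraction, was loess-normalised within each array, and the median over a probe's spots was taken. A probe was detected where its Cy5 signal exceeded the trimmed mean of the negative control spots (5% trimmed) by 3 SD. Probes were named by matching accessions to RefSeq, which named 26413 of 55681 probes. limma 3.58.1 (R 4.3.3) was fitted to the 22 arrays together, with terms for group and slide, and p-values were adjusted by the Benjamini-Hochberg method over all probes. limma takes the place of the shrinkage test of the study. The number of arrays limits the precision. The script was tested on simulated data. Groups came from the sample titles. Replicate numbers nearly coincide with slides, and same-numbered arrays deviated together (r from 0.19 to 0.82), with 19 of 22 arrays closest to their own number, so the number was also used as a block in place of the slide. Genes outside the members were named by rule: up to 3 called genes per list and direction with the largest high dose change, a fixed set of pathway genes, and the 5 genes most correlated with the members' mean. Some genes counted in these lists are not reported here by name. The members and lists were chosen with earlier results of these data known. Alternatives were background correction, scaling, the scanner's and the authors' ratios, the marked spots, thresholds, the terms of the fit, and leaving out arrays and slides.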

Additional observations from a re-analysis of the deposited data

Results flagged for a closer look

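In 36 groups of 4 to 6 arrays (9 members in 4 groups) the gap between the farthest array and its neighbour was set against the group's range by Dixon's test, and 2 groups passed, where chance passes about 1 in 20. Sqle on control replicate 5, at a log2 ratio of 2.37, lay above the other 4 controls (1.13 to 1.48). Its neighbouring spots on that array deviated by a median of 0.97. Nsdhl on low dose replicate 1, at -0.16, lay below the other 5 low dose arrays (0.74 to 1.16). The second Nsdhl probe read 0.97 on the same array, within its low dose range of 0.20 to 1.13.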

How the results depend on the processing

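Each value was recomputed under 43 alternatives, of which the subtraction of neighbouring spots was chosen after seeing the data. Of 1548 member estimates 1541 lay below 0. These are 36 member results refitted on the same arrays, and some alternatives change only a threshold and leave the estimate as it was. The shared sign is thus no separate support, and the share of all genes was not counted. Shares of all genes called were counted only for the fit described above and for the subtraction of neighbouring spots. The count called lower at the high dose (6) ran from 4 to 8, and those between medium and low and between high and medium dose were 0 in all 43. At the low dose (2) the count was 1 with normexp, the scanner's ratio, the authors' matrix, no slide term, slide as a random block, only the groups compared, without slides 1, 2, 3 or 5, or without low dose replicate 1 and medium dose replicate 2, and 0 at 2-fold. At the medium dose (4) it was 1 without the slide term, 2 without slide 3 and 0 without slide 1, which leaves 3 control and 3 medium dose arrays, too few for the detection requirement. It was 3 with the scanner's ratio, slide as a random block, without slide 4 or at 2-fold, and 5 without slide 2, without a fold threshold or without low dose replicate 1 and medium dose replicate 2. Dhcr7 at the medium dose lost its call with the scanner's ratio (adjusted p = 0.0523), slide as a random block (0.0723), only the groups compared (0.0588), no slide term (0.258), and without slide 3 (0.122) or slide 4 (0.0799). Lss at the medium dose lost it without the slide term (adjusted p = 0.12), slide 1 (0.105) or slide 3 (0.0933). Between high and low dose (1) it was 0 with median centring, the scanner's ratio, the authors' matrix, no slide term, without slide 1 or 3, at 2-fold, with the mean over probes or with neighbours subtracted, and 2 without low dose replicate 1 and medium dose replicate 2. With the replicate number as a block the count was 4 at the low dose, with Sc5d (-0.86, adjusted p = 0.02) and Dhcr7 (-0.66, adjusted p = 0.0433) added, and 2 between high and low dose, with Nsdhl added. With 1 array left out, the counts ran from 1 to 3 at the low, 3 to 6 at the medium and 6 to 7 at the high dose, and from 0 to 2 between high and low dose. At the high dose Sqle was not called with median centring (-1.20 ± 0.37, adjusted p = 0.112) or with the scanner's ratio (-1.05, adjusted p = 0.0671). Median centring shifts the median of all genes to -0.11 at the low dose and to -0.026 at the high dose. Dhcr7 was not called at the high dose without the slide term (-1.03, adjusted p = 0.206) or slide 3 (-1.17, adjusted p = 0.0508). Estimates that changed sign were never called. For Sc5d between high and low dose they were 0.16 with median centring, 0.032 without low dose replicate 1 and medium dose replicate 2 and 0.37 without slide 1, and -0.34 to 0.11 with 1 array left out. For Cyp51 at the low dose the estimate was 0.00074 without slide 2, and -0.097 to 0.038 with 1 array left out. For Abca1 at the high dose it was 0.062 without slide 4, and -0.21 to 0.0067 with 1 array left out. Where a call was lost, the cause was not tested.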
